A study of Mus musculus with 3 samples.

Results

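The 5 mouse genes described here encode embryonic and alpha-type globin chains: Hba-a1 and Hba-a2 (adult alpha globin), Hba-x (embryonic zeta globin), Hbb-bh1 (embryonic beta-h1 globin) and Hbb-y (embryonic epsilon-y globin). They were chosen by name, with earlier results of these arrays known, and were found through the RefSeq accession of each array probe. The 5 genes have 6 probes, of the 20017 genes named on the array: Hbb-y has 2 probes and the others have 1 each. Each probe was printed as 1 spot, so no repeated spot measures their technical spread. Hba-a1 and Hba-a2 are near-identical genes whose probes may each bind both transcripts, so their values are not independent of each other.

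RNA was taken from primary mouse embryonic fibroblasts, a mixed connective tissue culture, grown from E10.0 mouse embryo tissue of the C57BL/6J strain with the genotype Rb-/-;ATM-/-. The 3 groups were Rb-/-;ATM-/-;DNMT1-depleted cells, which carried a vector for a short hairpin RNA (shRNA) that targets Dnmt1, Rb-/-;ATM-/-;ATM-reconstituted cells, which carried a vector for ATM, and Rb-/-;ATM-/- cells with an empty vector. All 3 therefore lack Rb and endogenous ATM, including the control, and per the labels the first 2 groups were made from the same cells as the control. Puromycin selection (4 ug/ml) lasted 3 days in every group, a further culture period lasted 4 days, and each group was measured on 1 Agilent 1-colour array. With 1 array per group no difference has a replicate check, so differences are given without p-values or standard errors.

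Haemoglobin is a tetramer of alpha-type and beta-type chains, each holding a heme group. In the mouse the alpha-type genes lie together on chromosome 11 in the order Hba-x, Hba-a1, Hbq1b, Hba-a2 and Hbq1a, and the beta-type genes lie together on chromosome 7 with Hbb-bt and Hbb-bs, the adult genes, at the far end from Hbb-bh1 and Hbb-y. Primitive red cells of the yolk sac make Hba-x, Hbb-bh1 and Hbb-y together with the alpha genes, and later red cells switch to the adult beta genes. The genes are switched on in erythroid cells by GATA1, KLF1 and TAL1. They are generally silent in fibroblasts, although the Hba-a2 probe was detected on the empty-vector array here. In mouse and human erythroid cells embryonic globin promoters are silenced with the help of DNA methylation, and DNMT1 has been found in a repressor complex with the nuclear receptors TR2 and TR4.

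The annotated start regions of the members are shown as description only. Hba-a1 and Hba-a2, both detected, are near-identical genes, and Hbb-bh1, the other detected member, had no matched entry. The windows therefore give no comparison of detected with undetected members. RefSeq entries (build GRCm38.p6) were matched for 4 of the 5 genes, Hba-a1, Hba-a2, Hba-x and Hbb-y. The 250 bases before the annotated start are given 5′ to 3′ on the strand of the gene, with matches on either strand in capitals. The motifs searched were CACCC, the box bound by KLF factors, then CCAAT, the box bound by nuclear factor Y, and the TATA-type box written either as TATAAA or, in the beta-type genes, as ATAAAA (these may overlap). GATA factor sites were searched as AGATAA first. The same site was also searched with a final guanine, as AGATAG instead. Versions that begin with thymine were searched as TGATAA too. The last version, with both of those changes, was TGATAG here. Hba-a1 lies at chr11:32283422-32283671 on the plus strand, Hba-x at chr11:32276350-32276599 on the plus strand, and Hbb-y at chr7:103853208-103853457 on the minus strand.
Hba-a1: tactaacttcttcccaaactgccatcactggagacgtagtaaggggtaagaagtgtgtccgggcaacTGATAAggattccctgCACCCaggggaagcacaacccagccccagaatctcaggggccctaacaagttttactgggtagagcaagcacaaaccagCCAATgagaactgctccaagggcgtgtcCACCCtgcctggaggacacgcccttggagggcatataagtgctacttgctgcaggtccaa
Hba-x: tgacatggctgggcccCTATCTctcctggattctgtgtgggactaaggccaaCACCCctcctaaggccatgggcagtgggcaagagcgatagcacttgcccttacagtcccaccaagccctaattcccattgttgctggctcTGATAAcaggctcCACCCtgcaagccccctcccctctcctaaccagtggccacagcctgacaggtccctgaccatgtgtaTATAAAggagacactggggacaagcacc
Hbb-y: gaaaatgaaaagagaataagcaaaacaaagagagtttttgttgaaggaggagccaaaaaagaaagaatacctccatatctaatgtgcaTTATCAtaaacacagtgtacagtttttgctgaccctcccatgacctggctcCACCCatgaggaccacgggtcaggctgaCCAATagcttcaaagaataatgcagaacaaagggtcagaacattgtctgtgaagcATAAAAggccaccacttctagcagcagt

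The window of Hba-a2 (chr11:32296242-32296491, plus strand) shares an unbroken run of 247 bases with that of Hba-a1, so it is not printed again. Outside this pair the windows had little in common: between 43.6% and 48.4% of bases were identical in global alignments, and the longest shared run was 10 bases. Hba-a1 and Hba-a2 held 2 KLF boxes, 1 CCAAT box and 1 GATA site each. Hba-x held 2 KLF boxes, 2 GATA sites and 1 TATA box, and Hbb-y held 1 KLF box, 1 CCAAT box, 1 GATA site and 1 TATA-type box, all as matches of letters only. Of 32851 promoters in the table, 52.0% held the KLF box, 33.85% the CCAAT box, 26.5% a GATA site, 12.4% the first TATA-type spelling and 17.0% the second in the same window. The direct repeat of the nuclear receptor half-site with a single-base spacer was also searched on both strands; it was in 0.03% of all promoters and in none of these 4 windows. The windows of Hba-a1 and Hba-a2 held 4 CpG dinucleotides each, those of Hba-x and Hbb-y 1 each, against a median of 6.0 over all promoters. DNA methylation itself is not analysed here.

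Of the 5 globins, 3 were bright on the array labelled ATM vector and much dimmer on the control array, where only Hba-a2 was detected. They were the alpha genes Hba-a1 and Hba-a2 and the embryonic beta-type gene Hbb-bh1. Hba-x and Hbb-y, the other embryonic genes, were not well above background on any of the 3 arrays. On the Dnmt1 shRNA array only Hba-a2 exceeded the control by 2-fold, and by a much smaller amount. Values are processed signals in intensity units of the scanner software, and a probe counts as detected where the software marks it well above background. The lowest detected signal was 25.1 units on the Dnmt1 shRNA array, 32.7 on the array labelled ATM vector and 37.8 on the empty-vector array.

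Hba-a2, an adult alpha-globin gene, had a signal of 304 on the Dnmt1 shRNA array, 6116 on the array labelled ATM vector and 133 on the empty-vector array. It was the only member detected on all 3 arrays. After each array was scaled to its 75th percentile, Hba-a2 was 50.5-fold higher in the array labelled ATM vector than in the control (log2 difference 5.66). In the Dnmt1 shRNA array it was 2.56-fold higher (log2 difference 1.35). With normexp, another background correction, the ATM vector difference was 26.4-fold and the Dnmt1 shRNA difference was 1.82-fold, under 2-fold. Different probes of one gene, where both arrays detected them, had log2 differences with a pooled SD of 0.210 in the Dnmt1 shRNA comparison and 0.337 in the ATM vector comparison, which is a technical spread only.

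Hba-a1, the other alpha-globin gene, had a signal of 28.3 on the Dnmt1 shRNA array, 2020 on the array labelled ATM vector and 26.9 on the empty-vector array. The first 2 were detected and the third was not. Set against the lowest detected signal of the control array, Hba-a1 was at least 58.8-fold higher in the array labelled ATM vector, a bound that was 23.5-fold with normexp. No fold is given for Dnmt1 shRNA, because its signal lay below the control's detection level. The signals of the Dnmt1 shRNA and control arrays, 28.3 and 26.9, fall on either side of their own arrays' detection levels although they are close in size.

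Hbb-bh1, the beta-h1 chain of primitive red cells, had a signal of 15.4 on the Dnmt1 shRNA array, 2050 on the array labelled ATM vector and 8.03 on the empty-vector array. It was detected only on the array labelled ATM vector. There it was at least 59.7-fold higher than in the control, a bound that was 29.2-fold with normexp. That on and off pattern, detected on this array alone, was shared by 227 of the named genes, or 1.13% of those kept. A laxer mark of the same software, signal positive and significant, was also set for the Dnmt1 shRNA spot and not for the control spot.

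Hba-x, the zeta chain, had signals of 5.86 on the Dnmt1 shRNA array, 8.56 on the array labelled ATM vector and 8.95 on the empty-vector array. Hbb-y, the epsilon-y chain, had signals of 5.08, 23.1 and 34.3 on the same arrays by probe 1 and 5.52, 8.65 and 8.56 by probe 2. None of these reached the detection level of its array; the closest was probe 1 of Hbb-y on the control array, at 34.3 against 37.8. The laxer mark was set for Hbb-y probe 1 on the array labelled ATM vector and the control array, and not on the Dnmt1 shRNA array. For Hba-x it was set on the Dnmt1 shRNA array alone, and for Hbb-y probe 2 on no array. At these signals a lower level is not measurable, so no difference is given for either gene. The probe of Hbb-bh1, a neighbour of Hbb-y in the beta cluster, was bright on the array labelled ATM vector while both Hbb-y probes were not.

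**Figure D1:**
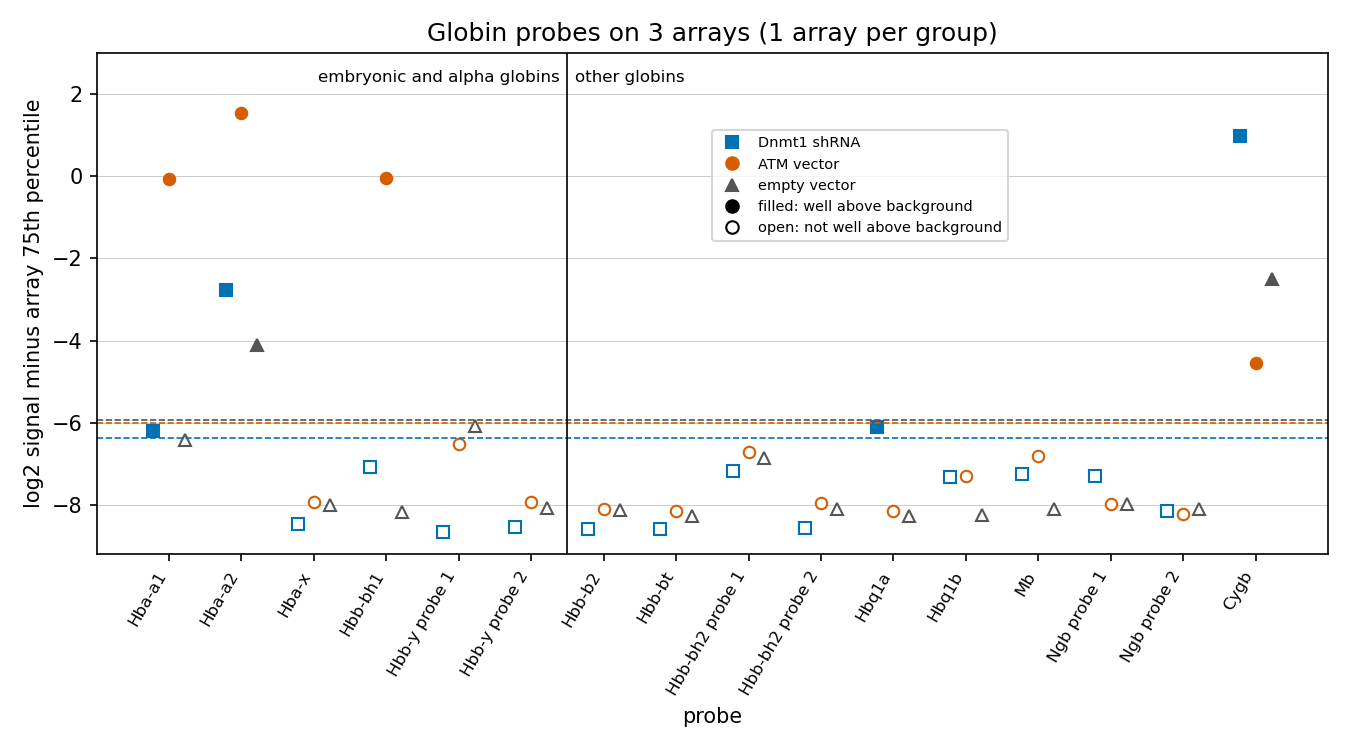
Log2 processed signal minus the 75th percentile of the array for each globin probe, with 1 point per array (squares, Dnmt1 shRNA; circles, ATM vector; triangles, empty vector) and dashed lines at the lowest detected signal of each array. Hba-a1, Hba-a2 and Hbb-bh1 lie at -0.06, 1.54 and -0.04 on the array labelled ATM vector, and Hba-x and Hbb-y lie on every array below the line of that array.

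The spots behind the bright values were examined one by one. On the array labelled ATM vector the median pixel signal before background subtraction was 2301 for Hba-a1, 4949.5 for Hba-a2 and 2391 for Hbb-bh1, over local backgrounds of 135, 141 and 131. The same spots of the control array read 191, 287 and 177.5, over 137, 135 and 140.0. None carried an outlier mark on any array, and the software's error for the 3 bright signals was 10.0% of each. The other spots within 2 rows and 2 columns of each on the slide did not share the difference: their median log2 difference between the array labelled ATM vector and the control was 0.06 around Hba-a1 (22 spots, highest 1.83), 0.20 around Hba-a2 (23 spots, highest 1.40) and -0.02 around Hbb-bh1 (24 spots, highest 0.77).

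All 3 of the members detected on either of these arrays were at least 2-fold higher in the array labelled ATM vector than in the control, a call reached by 7.55% of the 13242 genes tested, and 0 were at least 2-fold lower, against 6.82% of those genes. For the Dnmt1 shRNA array it was 1 of 2 higher, against 5.19% of 13785 genes, and 0 lower, against 1.57%. Since the genes were picked with these differences known, nothing is read from the counts. By size, Hba-a2 ranked 5 of 12166 genes measured on both arrays in the ATM vector comparison and 262 of 12579 in the Dnmt1 shRNA comparison. Among the 497 genes with a lower bound above 0 in the ATM vector comparison, Hbb-bh1 ranked 2 and Hba-a1 ranked 3. Set directly against the Dnmt1 shRNA array, the array labelled ATM vector was 70.1-fold higher for Hba-a1, 19.7-fold higher for Hba-a2 and at least 80.3-fold higher for Hbb-bh1, where 7.08% of 13871 genes were called higher and 9.89% lower. With normexp these were 20.8-fold for Hba-a1, 14.5-fold for Hba-a2 and at least 23.0-fold for Hbb-bh1. The comparisons share arrays, so they are not independent.

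**Figure D2:**
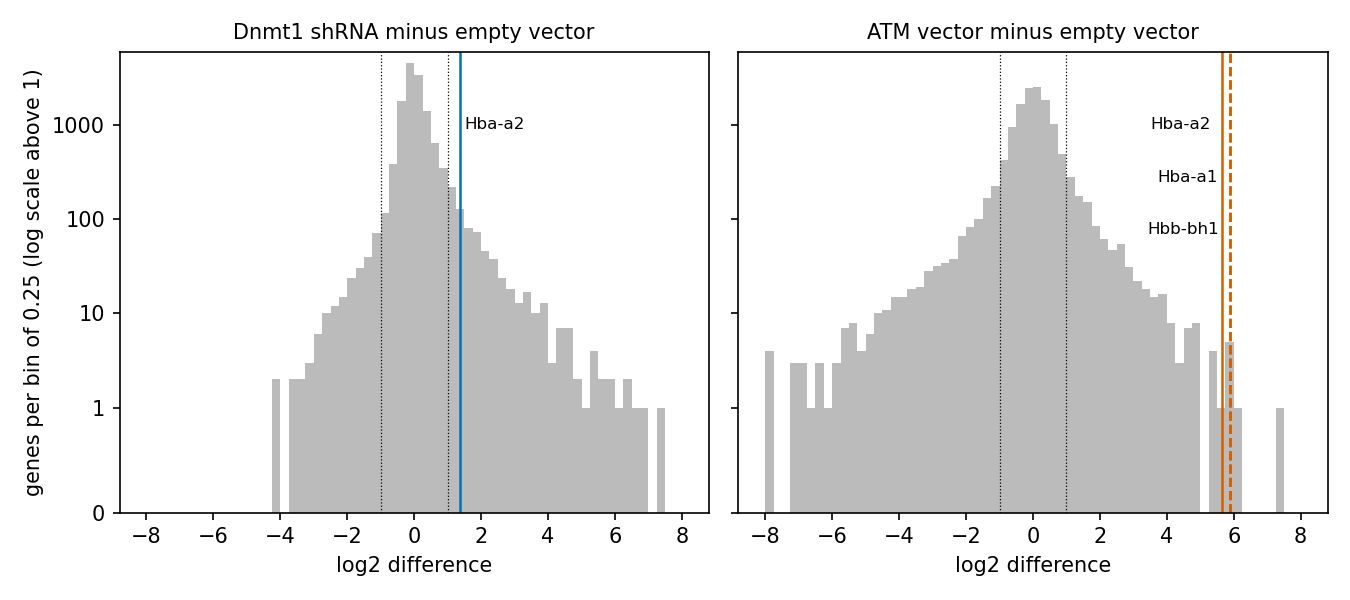
Number of genes by log2 difference from the empty-vector array, in bins of 0.25 on a vertical scale that is logarithmic above 1, for Dnmt1 shRNA (left) and ATM vector (right), with bounds used where 1 array was not well above background. Solid lines mark measured differences and dashed lines lower bounds of the globins, and dotted lines mark 2-fold; Hba-a2 lies at 1.35 on the left, and at 5.66 on the right next to Hba-a1 at 5.88 and Hbb-bh1 at 5.90.

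The remaining globins did not follow the 3 bright genes. Of the adult beta genes in the cluster order given above, Hbb-bt was read and Hbb-bs had no matched probe. Hbb-bt had signals of 5.40 with Dnmt1 shRNA, 7.45 with ATM vector and 7.50 with empty vector, none of them detected. A probe named Hbb-b2, a gene not in that cluster order, read 5.38, 7.61 and 8.24 on the same arrays, also undetected. Hbb-bh2, Hbq1b, the muscle oxygen store Mb and the neuronal globin Ngb were also undetected on all 3 arrays. Hbq1a, a theta-type gene at the end of the alpha cluster, was detected only on the Dnmt1 shRNA array, at 29.9, which is below the control's detection level. Cygb, a globin of fibroblasts and other connective cells, was bright: 4090 on the Dnmt1 shRNA array, 90.7 on the array labelled ATM vector and 411 on the empty-vector array. Cygb was thus 11.2-fold higher with Dnmt1 shRNA and 4.12-fold lower in the array labelled ATM vector, where Hba-a1, Hba-a2 and Hbb-bh1 were higher than in the control.

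The targeted genes were read on the same arrays. Dnmt1, the maintenance DNA methyltransferase, had signals of 956 on the Dnmt1 shRNA array, 3169 on the array labelled ATM vector and 4908 on the empty-vector array, a 4.58-fold lower value with the shRNA. Of the 2 Atm probes 1 was undetected on every array, and the other differed by 0.06 (log2) between the array labelled ATM vector and the control. Rb1, whose loss all 3 groups share, had log2 differences of 0.70 for Dnmt1 shRNA and -0.10 for ATM vector. Where the Atm and Rb1 probes lie relative to the deleted parts or the vector is not known here, so they check neither genotype nor vector. The slide is a further limit: slide 1 held the Dnmt1 shRNA and empty-vector arrays and slide 2 held only the one labelled ATM vector, so slide and vector cannot be told apart.

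Of the regulators that drive globin genes in red cells, Gata1, Klf1, Tal1, Gfi1b and Lmo2 were undetected where the globins were bright. Other erythroid transcription factors were detected on the array labelled ATM vector, among them Gata2 at 797 and Ldb1 at 3132. Runx1 was at 729 and 1367 there by its 2 probes. Gata1, the master erythroid factor, had signals of 5.60 on the Dnmt1 shRNA array, 8.65 on the array labelled ATM vector and 8.77 on the empty-vector array. Klf1, the activator of adult beta globin, had signals of 43.9, 20.1 and 12.2 and was detected only on the Dnmt1 shRNA array. Tal1, the partner of GATA1, had signals of 18.5, 32.8 and 9.18 and was detected on none, although its signal on the array labelled ATM vector was close to the lowest detected one. Gfi1b and Lmo2, further members of the erythroid network, were undetected on all 3 arrays.

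Of 24 erythroid transcription factors 16 were detected on the array labelled ATM vector, among them factors used by many cell types. There 1 of 17 tested was at least 2-fold higher and 1 was lower than in the control, against 7.55% and 6.82% of all genes. The median log2 difference was 0.12 against 0.03 over all genes tested. Higher was Cbfa2t3, a corepressor that binds the TAL1 complex, at 2.50-fold; it rests on 1 of its 3 probes, the others being undetected, and with normexp 0 factors were called higher. Lower was Zfpm1, the GATA cofactor FOG1, at 3.31-fold. In the Dnmt1 shRNA comparison 1 of 20 tested was higher and 0 were lower, against 5.19% and 1.57% of all genes. The median was 0.12, against -0.01 over all genes tested. The higher one was Nfe2, the p45 subunit of the factor that binds the globin locus control region, at 2.49-fold. That call was lost, with 0 higher, under normexp and for probes detected on all 3 arrays.

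Some red cell products were undetected as well. Alas2, the erythroid first enzyme of heme synthesis, had signals of 5.24 on the Dnmt1 shRNA array, 7.64 on the array labelled ATM vector and 8.13 on the empty-vector array and was undetected on each. Slc4a1, the red cell anion exchanger band 3, had signals of 23.5, 24.4 and 16.9 on the Dnmt1 shRNA array, the array labelled ATM vector and the empty-vector array, also undetected. The same held for Rhag, Kel and Epb42, further proteins of the red cell membrane. Epor, the erythropoietin receptor, was detected on all 3 arrays, at 1602, 433 and 1999, and was 4.19-fold lower in the array labelled ATM vector than in the control.

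**Figure D3:**
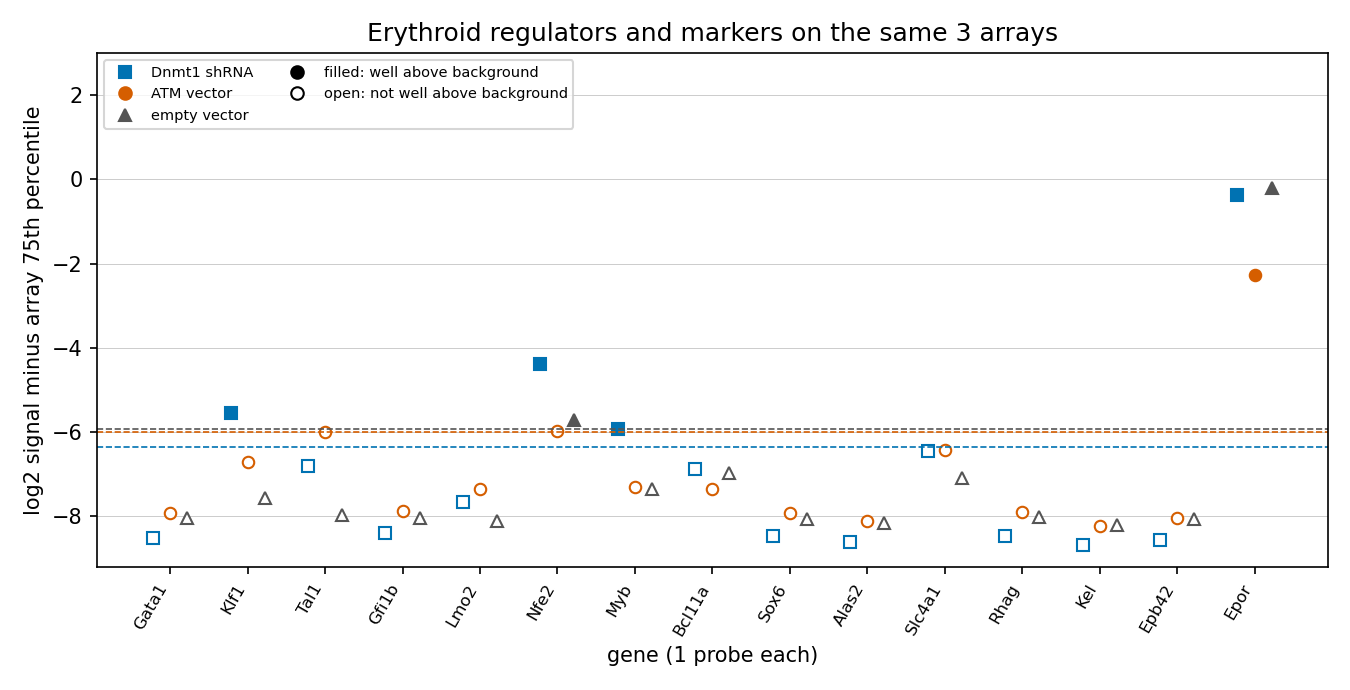
Log2 processed signal minus the 75th percentile of the array for 15 erythroid regulators and markers, 1 probe each, drawn as in the plot of globin probes, with dashed lines at the lowest detected signal of each array. On the array labelled ATM vector only Epor, at -2.28, is well above background.

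Of 37 matched erythroid surface, membrane and enzyme markers 22 were detected on the Dnmt1 shRNA array, 19 on the array labelled ATM vector and 19 on the empty-vector array, and 15 were detected on none. Many of the detected ones are not restricted to red cells. Their summed signal, relative to the 75th percentile of the array, was 91.9, 181 and 109 in that order. Most of the excess on the array labelled ATM vector over the control came from the water channel Aqp1, which was 4.20-fold higher there. Aqp1 had signals of 25909, 180516 and 47261 in the same order, so the sums do not show a rise of the list as a set. In the ATM vector comparison 4 of 20 tested were higher and 3 were lower, against 7.55% and 6.82% of all genes. Besides Aqp1, the stem cell factor receptor Kit was at least 6.42-fold and the glutathione transferase Mgst3 2.71-fold higher. The carbonic anhydrase Car2 was at least 8.72-fold lower. With Dnmt1 shRNA 1 of 22 was higher and 1 was lower, against 5.19% and 1.57% of all genes. Dmtn, which bundles actin in the red cell skeleton, was 6.71-fold higher, and Car2 was 3.60-fold lower. The medians were 0.15 for ATM vector and -0.11 for Dnmt1 shRNA.

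Heme synthesis and iron supply genes give a cell what it needs to fill globin chains with heme. Of 28 genes tested in each comparison, 1 was at least 2-fold higher in the array labelled ATM vector than in the control and 0 were lower (median log2 difference 0.05), where 7.55% and 6.82% of all genes were called. With Dnmt1 shRNA 0 were higher or lower (median -0.10), where 5.19% and 1.57% of all genes were called. In the array labelled ATM vector set against Dnmt1 shRNA, 4 were higher and 0 were lower (median 0.22), where 7.08% and 9.89% of all genes were called. The gene called against the control was Steap3, the ferrireductase that lets cells use transferrin iron, at 2.83-fold. Tfrc, the transferrin receptor, was at 1.94-fold in the same comparison, under 2-fold.

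Genes of the machinery that silences embryonic globins were nearly all detected, 32, 33 and 32 of 35 on the Dnmt1 shRNA array, the array labelled ATM vector and the empty-vector array. Bcl11a and Sox6, the repressors that close embryonic and fetal globins in red cells, were detected on none: Bcl11a had signals of 17.5, 13.0 and 18.4 and Sox6 of 5.81, 8.62 and 8.61. With Dnmt1 shRNA the only gene of 32 tested that differed by 2-fold was Dnmt1 itself. Of all genes 5.19% were called higher and 1.57% lower there. In the array labelled ATM vector 1 of 33 differed, where 7.55% of all genes were called higher and 6.82% lower. It was the RNA-binding protein Lin28b, a fetal-stage factor that keeps fetal globin on in human red cells. Lin28b was at least 2.85-fold higher by 1 of its 2 probes. Nr2c1, which encodes TR2, was at 0.81, Nr2f2 at 0.66 and the methyltransferase Dnmt3a at -0.79 on the log2 scale there. The medians were -0.08 for Dnmt1 shRNA and -0.04 for ATM vector.

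None of the tested genes beside the alpha cluster was called higher in the array labelled ATM vector. Of the 8 protein-coding genes on each side, 13 were tested in that comparison with the control. There 0 were higher and 2 lower by 2-fold, against 7.55% and 6.82% of all genes. In the Dnmt1 shRNA comparison 12 were tested, with 1 higher and 0 lower, against 5.19% and 1.57%. With so few genes nothing is read from the counts. Nprl3, which adjoins the cluster and whose introns hold the alpha-globin enhancers, was at 0.05 with Dnmt1 shRNA and 0.24 with ATM vector on the log2 scale. Next to it Mpg, a DNA repair glycosylase, was at 0.27 and 0.04, Rhbdf1 at 0.01 and 0.84, and Snrnp25 at -0.26 and 0.36. On the other side Sh3pxd2b and Ubtd2 were at -0.03 and 0.25 with Dnmt1 shRNA and at 0.03 and 0.28 with ATM vector. The 2 lower genes were Il9r, at -1.89 or below as a bound, and Fgf18, at -1.53, and the gene higher with Dnmt1 shRNA was Efcab9 at 1.48.

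Around the beta cluster all neighbours are olfactory receptor genes, of which 14 of 16 had a probe. Only Olfr629 and Olfr635 were detected on any array, and 0 were 2-fold different in either comparison with the control. With 2 tested for Dnmt1 shRNA and 1 for ATM vector, nothing is read from that count. Hbb-bh1 was thus the only gene with a probe, in its cluster or among these neighbours, that was called in the ATM vector comparison.

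**Figure D4:**
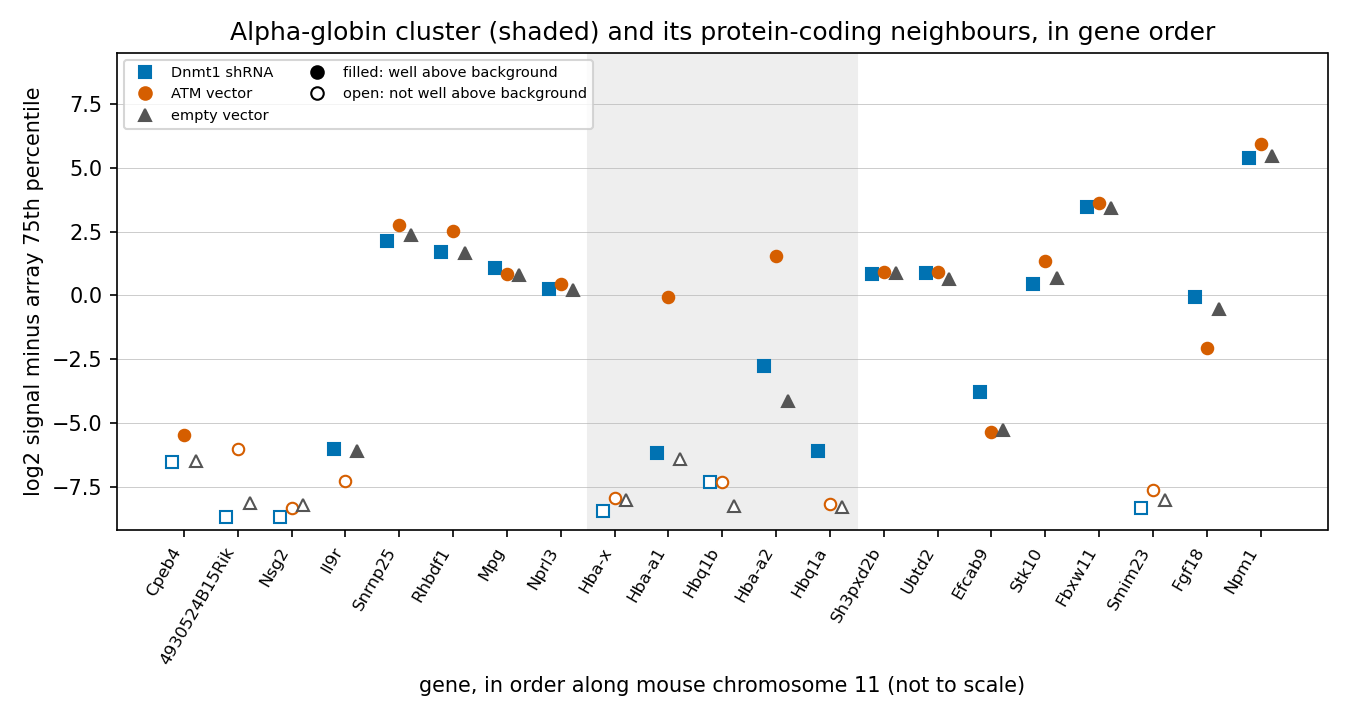
Log2 processed signal minus the 75th percentile of the array for the alpha-globin genes (shaded) and 8 protein-coding neighbours on each side, in gene order along chromosome 11, with filled symbols for signals well above background and open ones for the others. The circles for Hba-a1 (-0.06) and Hba-a2 (1.54) stand far above the other symbols of these genes, while Nprl3 and Sh3pxd2b lie at similar levels on all 3 arrays.

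The labelled cell type was checked against fibroblast markers, and other cell types by their own markers. Of 24 fibroblast markers 24, 22 and 22 were detected on the Dnmt1 shRNA array, the array labelled ATM vector and the empty-vector array, with Col1a1 signals of 103799, 112672 and 106158. In the ATM vector comparison 2 of 23 were higher and 4 lower, against 7.55% and 6.82% of all genes. The higher ones were Postn at 7.53-fold and S100a4 at 3.38-fold. Among the lower ones Fap was at least 23.8-fold and Lum 9.23-fold lower. The median log2 difference of the fibroblast list was 0.05. Blood, macrophage and megakaryocyte markers were detected for 13, 12 and 14 of 26, with summed signals of 9.86, 7.62 and 7.63 relative to the 75th percentile. In the ATM vector comparison 1 of 15 of them was higher and 1 was lower, against the same shares of all genes. The higher one was Coro1a, an actin-binding protein of blood cells, at 3.47-fold. The lower one was Hcls1, a call lost with normexp. The pan-leukocyte gene Ptprc had signals of 21.0, 23.8 and 40.6 on the 3 arrays and was detected only with the empty vector. Other markers of the blood list were detected on all 3 arrays, among them Elane at 1004, 1717 and 1253. Itgam was at 9346, 8468 and 9529 by 1 of its 3 probes. Whether the shifts of these markers bear on the globin values was not tested. A bulk array cannot tell a small number of cells with much globin RNA from many cells with little; among the defining red cell markers, Gata1, Alas2, Rhag, Kel, Epb42 and Slc4a1 were undetected on the array where the globins were bright.

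The genes most like each detected member were found by the root mean square distance between normalized log2 signals over the 3 arrays, among named genes with the same on and off pattern. For Hba-a1 they were Havcr2 at 0.466, Slamf9 at 0.809 and Adm2 at 0.889, of 247 candidates. For Hba-a2 they were Itgb7 at 0.418, Hoxa7 at 0.425 and Krt14 at 0.513, of 11764. For Hbb-bh1 they were Hoxb7 at 0.879, Olfr1179 at 0.932 and Epha8 at 1.02, of 207. Each distance rests on 3 arrays only, and values below the detection level set part of it for Hba-a1 and Hbb-bh1.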

How the data were processed

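The authors deposited scanner output from Agilent's Feature Extraction software, version 10.7.3.1 per the file headers: 1 array per sample, with an intensity per spot on a linear scale, background-subtracted, and flags of 0 or 1. The deposited series matrix holds the same intensity values, within 0.495% per spot. Control spots and the 235, 167 and 228 outlier spots of the Dnmt1 shRNA, ATM vector and empty-vector arrays were left out, and no spot was saturated. Log2 processed signal was averaged per probe (39404 probes) and each array's 75th percentile was subtracted. Detected means flagged well above background, which held for 59.6%, 55.0% and 55.1% of probes. A gene's log2 difference is the mean over probes detected on at least 1 of the 2 arrays. Where 1 array was dim, its value was set to the higher of its own signal and the lowest detected signal there, giving "at least N-fold". Called means 2-fold by the difference or that bound.

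Probes were named through unversioned RefSeq accessions and a RefSeq table of GRCm38.p6 (26412 of 39429 probes named, 0 with several names). The array design is on mm9, so the table gave names and gene order only. Members and lists were chosen with earlier results of these data known. The text names the 5 globins, the other globins, fixed erythroid genes, the neighbours, up to 5 genes per list with the largest differences, and the 3 genes most like each member. Ptprc, Col1a1, Hemgn, Gfi1b, Lmo2, Rhag, Kel, Epb42, Gata2, Ldb1, Runx1, Elane and Itgam fall outside that rule. They were named after their values were seen. Normexp (limma 3.58.1, offset 50) used median spot signals in place of the planned means, which were not used here. Other steps used Python 3.11.15, numpy 2.4.6, pandas 2.3.3 and Biopython 1.88, and the ratio code was tested on simulated data. The number of arrays limits precision.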

Additional observations from a re-analysis of the deposited data

How the results depend on the processing

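No paired analysis was possible because each group has 1 array, and for the same reason no replicate could be left out. Of the recomputed differences of Hba-a1, Hba-a2 and Hbb-bh1, 45 moved by less than the spread between probes, 11 moved further and 0 changed direction. With normexp background correction Hba-a2 was at 0.87 (log2) for Dnmt1 shRNA minus empty vector, so 0 members were called higher there. Under it the ATM vector minus empty vector values were 4.55 for Hba-a1 and 4.87 for Hbb-bh1 (bounds) and 4.72 for Hba-a2, and the ATM vector minus Dnmt1 shRNA values were 4.38 for Hba-a1, 3.86 for Hba-a2 and 4.52 for Hbb-bh1 (bound). Subtracting the array median gave 1.12 for Hba-a2 in the Dnmt1 shRNA comparison; it moved the median of all probes detected on both arrays there to -0.28, against -0.04. With the laxer detection call Hba-a1 was at 6.37 and Hbb-bh1 at 8.13 (bound) against the control, Hbb-bh1 was at 7.03 against Dnmt1 shRNA, and for Dnmt1 shRNA 2 members were called higher and 1 lower, as with no filter on dim probes (2 and 1). Restricting to probes detected on both arrays, or on all 3, left 1 member called higher in the ATM vector comparison, and on all 3 left 1 in ATM vector minus Dnmt1 shRNA, since fewer probes enter. The median of the other globins changed sign to 0.16 with the laxer call and 0.13 with no filter in the ATM vector comparison, and to 0.22 with no filter against Dnmt1 shRNA, where the endothelial list changed to 0.0642. Over all genes the Dnmt1 shRNA counts, 716 higher and 217 lower, became 444 and 55 with normexp, 1379 and 598 with the laxer call, 1282 and 565 with no filter, 441 and 94 on both arrays and 361 and 60 on all 3. The ATM vector counts, 1000 higher and 903 lower, became 1517 and 1452 with the laxer call; the lower ones were 1370 with no filter and 563 with either restriction. Against Dnmt1 shRNA, 982 higher became 626 with normexp and 1372 lower became 858 and 833 with the restrictions. Of all recomputed counts and medians 864 stayed close and 155 moved. The cause was not tested. Signals under 25.1 to 37.8 units have no measurable order.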

Other observations

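Markers of the tissues next to early blood in the embryo were measured on the same arrays. For the counts that follow, 5.19% of all genes were called higher and 1.57% lower with Dnmt1 shRNA. For ATM vector the shares were 7.55% and 6.82%. Of 19 yolk sac and extraembryonic endoderm markers 10, 8 and 7 were detected on the Dnmt1 shRNA array, the array labelled ATM vector and the empty-vector array. With Dnmt1 shRNA 2 of 10 tested were higher, the iron carrier transferrin (Trf) at least 8.23-fold and the retinol carrier Rbp4 2.19-fold, and 0 were lower. For ATM vector 1 of 9 was higher, the endocytic receptor Lrp2 at least 10.1-fold, and 2 were lower, Rbp4 at least 17.2-fold and Gata6 2.13-fold. With normexp 1 yolk sac marker was called higher with Dnmt1 shRNA and 1 lower for ATM vector. Of 16 endothelial and hemogenic markers 8, 6 and 6 were detected. Etv2, a factor that specifies blood and vessel precursors in the embryo, was detected by both probes on the array labelled ATM vector alone and was at least 3.13-fold higher than in the control, while Fli1, another factor of blood and vessel cells, was at least 26.2-fold lower, and Flt1 and Eng were 2.40-fold and 2.36-fold lower. With Dnmt1 shRNA 0 of 8 tested endothelial markers differed by 2-fold. Hemgn, named for its expression in blood-forming tissue, was detected on all 3 arrays, at 43712 on the Dnmt1 shRNA array, 62527 on the array labelled ATM vector and 54384 on the empty-vector array.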
